A study of Homo sapiens with 4 samples.

Results

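The genes described are 8 markers of luminal and epithelial identity in the breast, EPCAM, SPDEF, GATA3, FOXA1, ELF3, MUC1, ST14 and SCNN1A, chosen by their symbols among the 61471 gene names counted. They were measured by polyA-selected RNA sequencing in MDA-MB-231, a human cell line of triple-negative breast cancer, which is negative for oestrogen receptor, progesterone receptor and amplified HER2. All 4 libraries came from cells of that line labelled wild type, grown in the same medium with serum and transfected with H2B-EGFP (a histone fused to a green fluorescent protein) and with RFP (a red fluorescent protein) under the viral CMV promoter. The 2 EGFP positive libraries are labelled as having no increased extravasation, the passage of tumour cells out of vessels, and the 2 EGFP negative libraries as having increased extravasation. EGFP status and extravasation status change together in these labels and cannot be told apart, and the series title adds polyploidy, which the labels used here do not assign to either group. Whether replicate libraries were grown as separate cultures is not stated in the labels. The p-values therefore measure library-to-library spread alone, and that may be technical.

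Luminal cells line the ducts and lobules of the breast, and a small set of transcription factors holds their identity. GATA3 and FOXA1 open chromatin for the oestrogen receptor, while SPDEF and ELF3 are ETS-family factors of secretory and surface epithelia. The other 4 genes encode surface proteins of epithelia: the adhesion molecule EPCAM, the transmembrane mucin MUC1, the membrane serine protease matriptase (ST14) and the alpha subunit of the epithelial sodium channel (SCNN1A). MDA-MB-231 is known as a line of mesenchymal, claudin-low character in which much of this programme is weak.

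In levels per length, 1 gene was silent and 3 were close to the limit of detection in every library, while SPDEF, EPCAM and GATA3 were expressed throughout and SCNN1A mainly in EGFP negative cells. Levels per length are in TPM (counts divided by exon length and scaled to a common total), and a gene was called silent if it had 3 counts or fewer in every library, 3 counts being 0.237 to 0.262 CPM (counts after scaling each library to the same total) at these depths of 11445076 to 12635576 counts. FOXA1 was the silent gene, with 1 and 0 counts in EGFP positive and 1 and 0 counts in EGFP negative libraries. ST14, ELF3 and MUC1 had at most 16 counts in any library, and at most 5.41% of the 16413 tested genes had a mean TPM below theirs. Over all 4 libraries SPDEF had the highest mean level of the 8 at 65.5 TPM and 71.5% of their summed TPM, a level above that of 82.5% of tested genes. EPCAM followed at 11.7 TPM, GATA3 at 7.62 TPM and SCNN1A at 5.01 TPM, and then MUC1 at 0.881 TPM, ST14 at 0.518 TPM, ELF3 at 0.310 TPM and FOXA1 at 0.0265 TPM. This order was not the same in both groups. In EGFP positive cells EPCAM was at 15.5 ± 0.0541 TPM (SD, n = 2), GATA3 at 8.21 ± 0.0172 TPM (SD, n = 2) and SCNN1A at 0.849 ± 0.1197 TPM (SD, n = 2), and these 3 levels did not overlap between libraries. In EGFP negative cells SCNN1A, at 9.18 ± 0.309 TPM (SD, n = 2), stood above EPCAM at 7.92 ± 0.138 TPM (SD, n = 2) and GATA3 at 7.02 ± 0.296 TPM (SD, n = 2), again with no overlap between libraries. Among the low genes in EGFP positive libraries ST14, at 0.607 and 0.649 TPM, lay above MUC1, at 0.210 and 0.510 TPM, which overlapped with ELF3, at 0.126 and 0.325 TPM. In EGFP negative libraries MUC1, at 1.29 and 1.51 TPM, lay above ST14, at 0.642 and 0.175 TPM, which overlapped with ELF3, at 0.287 and 0.4996 TPM. TPM computed over protein-coding names only were 1.54 to 1.59 times higher for every gene, so the order holds on either scale but the absolute values do not.

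**Figure D1:**
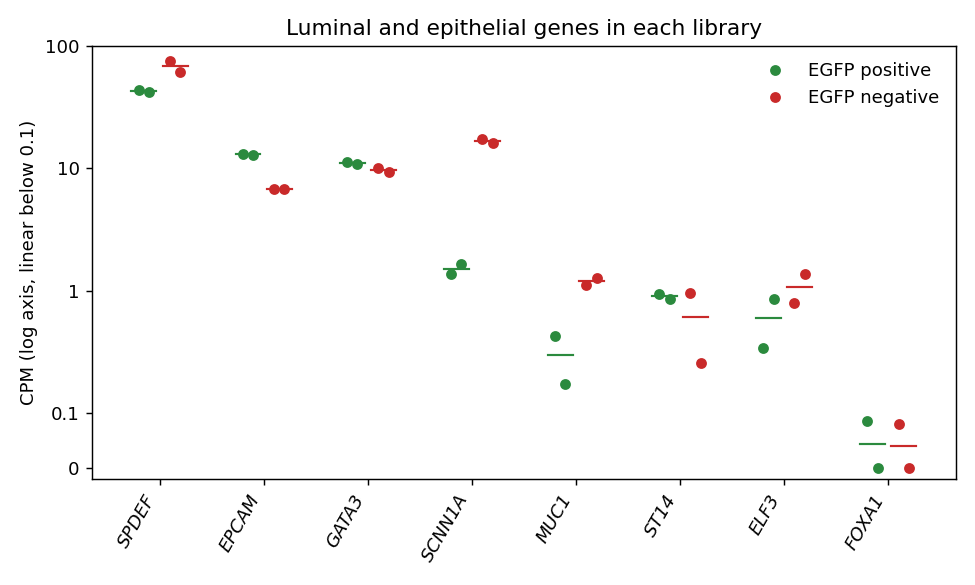
CPM of the 8 genes in each library (dots) with group means (bars), on a log axis that is linear below 0.1, EGFP positive libraries in green and EGFP negative ones in red. SPDEF lies highest, at 42.1 to 74.9 CPM, FOXA1 at or near 0, and SCNN1A shows the widest gap between groups.

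The sequences upstream of the start sites are shown for the 5 genes with an entry in the RefSeq promoter table (GRCh38.p14). EPCAM, ST14 and SCNN1A have no entry there. Each run holds the 250 bases before the start nearest to the 5′ end of the deposited gene model, 5′ to 3′ on the gene's own strand, with every match to the E-box letters CACCTG, on either strand, in capitals. E-boxes of these letters are known as binding sequences of the repressors ZEB1 and SNAI2.
MUC1, chr1:155192916-155193165, minus strand: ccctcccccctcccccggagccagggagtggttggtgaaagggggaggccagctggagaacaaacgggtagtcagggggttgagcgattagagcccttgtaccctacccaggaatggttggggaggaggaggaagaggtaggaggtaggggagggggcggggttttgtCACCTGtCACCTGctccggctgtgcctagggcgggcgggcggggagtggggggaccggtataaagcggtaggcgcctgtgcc
ELF3, chr1:202010337-202010586, plus strand: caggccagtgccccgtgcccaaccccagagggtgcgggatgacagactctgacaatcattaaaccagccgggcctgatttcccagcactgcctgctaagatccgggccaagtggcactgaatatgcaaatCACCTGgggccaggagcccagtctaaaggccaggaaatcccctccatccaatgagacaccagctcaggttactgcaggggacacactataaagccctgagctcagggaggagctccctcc
FOXA1, chr14:37595250-37595499, minus strand: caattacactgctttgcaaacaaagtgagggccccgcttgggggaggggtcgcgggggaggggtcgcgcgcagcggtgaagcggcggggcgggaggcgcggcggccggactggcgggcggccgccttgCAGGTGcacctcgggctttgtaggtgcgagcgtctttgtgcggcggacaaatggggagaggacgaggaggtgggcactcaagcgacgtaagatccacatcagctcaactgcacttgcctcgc
SPDEF, chr6:34556330-34556579, minus strand: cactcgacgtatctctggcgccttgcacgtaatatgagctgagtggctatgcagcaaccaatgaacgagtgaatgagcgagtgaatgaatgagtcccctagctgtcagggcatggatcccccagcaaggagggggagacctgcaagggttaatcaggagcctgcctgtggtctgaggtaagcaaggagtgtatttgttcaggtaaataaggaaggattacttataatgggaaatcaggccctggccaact
GATA3, chr10:8054438-8054687, plus strand: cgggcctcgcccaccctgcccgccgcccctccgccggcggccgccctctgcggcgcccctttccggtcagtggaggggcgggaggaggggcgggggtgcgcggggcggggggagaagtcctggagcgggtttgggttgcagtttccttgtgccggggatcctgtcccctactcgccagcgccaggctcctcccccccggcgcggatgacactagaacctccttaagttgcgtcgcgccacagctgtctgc
The E-box letters occurred at 2 places in the MUC1 window, starting 82 and 75 bases before the start, at 1 place in the ELF3 window, 120 bases before the start, and at 1 place in the FOXA1 window, 122 bases before it. They did not occur in the windows of SPDEF and GATA3. Of 34788 such windows in the table, 17.5% held them. The windows of MUC1 and ELF3 also held the letters TATAAA on the strand shown. GC content was 73.6% for GATA3, 67.2% for the silent FOXA1, 66.0% for MUC1, 58.4% for ELF3 and 50.8% for SPDEF, against a median of 58.0% over all windows. A core motif of the GATA family, with the letters AGATAA, was held by 9.21% of all windows, and that of forkhead factors, TGTTTAC, by 2.98%, and neither was found in the 5 windows on either strand. The ETS core GGAA occurred in 4 of the 5, all but FOXA1, and in 92.8% of all windows. The start used for ELF3 lies 2642 bases from the 5′ end of its deposited gene model. These matches describe letters in a window and show no binding. Only the letters CACCTG were searched for as E-box, so other spellings are not marked. Whether the matches bear on the levels of these genes was not tested.

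The comparison asked which of the genes differed between EGFP negative and EGFP positive cells. Every fold change is the level in EGFP negative cells over that in EGFP positive cells, and adjusted p-values are from edgeR's quasi-likelihood test over all 16413 tested genes with Benjamini-Hochberg adjustment, two-sided. In that test 18.9% of all genes passed at 0.05, 9.4% higher and 9.46% lower in EGFP negative cells. Of the 8 genes 7 passed the count filter, and of these 3 were higher (SCNN1A, MUC1 and SPDEF), 1 was lower (EPCAM) and 3 were not called (GATA3, ELF3 and ST14). MUC1 passed that filter only through the EGFP negative libraries, the group where it was higher. The median log2 fold change of the 7 was 0.67, beside -0.0028 over all tested genes. The members were chosen with earlier results of these data known, so setting them beside all genes describes and tests nothing. With 2 libraries a group a permutation of labels cannot go below an exact two-sided p = 0.33, so each call rests on the spread shared across genes by the model.

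Among the transcription factors SPDEF rose and GATA3 did not pass. SPDEF (GRCh38 chromosome 6, 34537802 to 34556333, minus strand) was counted 510 and 486 times in the EGFP positive pair of libraries and 935 and 723 times in the EGFP negative pair. In CPM these were 44.0 and 42.1 against 74.9 and 61.8, so both EGFP negative libraries lay above both EGFP positive ones, with a wider spread among themselves. The group means were 43.1 ± 1.37 and 68.4 ± 9.28 CPM (SD, n = 2 each), a log2 fold change of 0.67 ± 0.11 (SE) or 1.59-fold, with an edgeR adjusted p = 0.00082.

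GATA3 (chromosome 10, 8054688 to 8075198, plus strand), the factor that keeps luminal cells differentiated, had 130 and 126 counts in EGFP positive and 126 and 109 counts in EGFP negative libraries. Its CPM were 11.2 and 10.9 against 10.1 and 9.32, so the groups did not overlap, as was so for 57.4% of all tested genes. The log2 fold change was -0.19 ± 0.17 (SE), with an edgeR adjusted p = 0.52. GATA3 was thus detected in every library of a line labelled triple negative, and the test did not show a difference.

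FOXA1 (chromosome 14, 37589552 to 37595249, minus strand) had 2 counts in all 4 libraries together, under the filter, and no fold change is given. Counts this low allow no statement on a difference between groups. Its close relative FOXA2 was expressed, with 636 and 684 counts in EGFP positive and 844 and 621 counts in EGFP negative libraries. FOXA2 had a mean of 48.7 TPM, the level per length, and a log2 fold change of 0.08 ± 0.12 (SE), with an edgeR adjusted p = 0.7. FOXA3, the remaining FOXA gene, was at 1.33 TPM.

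ELF3 (chromosome 1, 202007945 to 202017183, plus strand) had 4 and 10 counts in EGFP positive and 10 and 16 counts in EGFP negative libraries. The groups overlapped, at 0.345 and 0.866 CPM against 0.801 and 1.37 CPM. The log2 fold change of 0.82 ± 0.57 (SE) had an edgeR adjusted p = 0.37, and the ratio of summed counts was 1.77 with a 95% counting interval of 0.889 to 3.66 (exact, counting error only). Without EGFP positive library 1 the log2 fold change was 0.31, without EGFP positive library 2 it was 1.61, and without EGFP negative library 2 it was 0.41, none of them called. Of its exon bases 18.0% are shared with exons of other genes, 10.8% with the antisense gene ELF3-AS1, which had 11 to 22 counts itself. The counting used no strand option, so reads of the pair cannot be told apart there. Its ETS relatives EHF and ELF5, the other epithelial members of that group, stood apart in level: EHF had 32.97 TPM with an edgeR adjusted p = 0.23, and ELF5 had 0 counts in every library.

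Of the surface molecules EPCAM fell. EPCAM (chromosome 2, 47345158 to 47387020, plus strand), which joins epithelial cells to each other and is a common capture antigen for carcinoma cells, was counted 153 and 148 times in EGFP positive and 85 and 80 times in EGFP negative libraries. In CPM these were 13.2 and 12.8 against 6.81 and 6.84, with close agreement inside each group and no overlap between them. The means were 13.01 ± 0.275 and 6.83 ± 0.0193 CPM (SD, n = 2 each), a log2 fold change of -0.93 ± 0.18 (SE), 1.90-fold lower, with an edgeR adjusted p = 0.0021.

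MUC1 (chromosome 1, 155185824 to 155192915, minus strand), a mucin of the apical surface, moved the other way at a far lower level. The EGFP positive pair held 5 and 2 of its counts and the EGFP negative pair 14 and 15, which is 0.432 and 0.173 CPM against 1.12 and 1.28 CPM. The groups did not overlap, but EGFP positive library 2 lay under the floor of 3 counts. MUC1 passed the count filter (minimum count 10) only through its EGFP negative libraries, so its call leans on the group where it is high. The stricter filter left it untested. The log2 fold change was 1.95 ± 0.60 (SE), with an edgeR adjusted p = 0.036, and the ratio of summed counts was 3.94 with a 95% counting interval of 1.69 to 10.7. Its call was lost without EGFP positive library 1 (log2 fold change 2.72, adjusted p = 0.07), without EGFP positive library 2 (1.45, adjusted p = 0.33) and when low counts were left unfiltered (adjusted p = 0.06), and DESeq2 gave it no adjusted p. MUC1 also holds a tandem repeat in which short reads are hard to place, so its level is uncertain.

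The protease gene ST14 (chromosome 11, 130159782 to 130210362, plus strand) had 11 and 10 counts in EGFP positive and 12 and 3 counts in EGFP negative libraries. The groups overlapped, since EGFP negative library 1 was the highest of the 4 in CPM at 0.962 and library 2 the lowest at 0.256. Its log2 fold change of -0.55 ± 0.60 (SE) had an edgeR adjusted p = 0.6 and changed sign without EGFP negative library 2 (0.09), and the ratio of summed counts was 0.679 with a 95% counting interval of 0.326 to 1.38. A difference was not detectable at this depth.

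SCNN1A showed the widest difference of the 7 tested genes. The gene (chromosome 12, 6346843 to 6377359, minus strand) was counted 16 and 19 times in EGFP positive and 217 and 190 times in EGFP negative libraries. In CPM these were 1.38 and 1.65 against 17.4 and 16.2, so that the lowest EGFP negative library was far above the highest EGFP positive one. The means were 1.51 ± 0.187 and 16.8 ± 0.811 CPM (SD, n = 2 each), a log2 fold change of 3.47 ± 0.23 (SE) or 11.1-fold, with an edgeR adjusted p = 1.6e-07. It ranked 26 of 16413 tested genes by log2 fold change. Only 1.44% of its exon bases, 59 in all, are shared with another gene, LTBR on the opposite strand, which had 1142 to 1558 counts and a log2 fold change of 0.25 that was not called (edgeR adjusted p = 0.062).

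**Figure D2:**
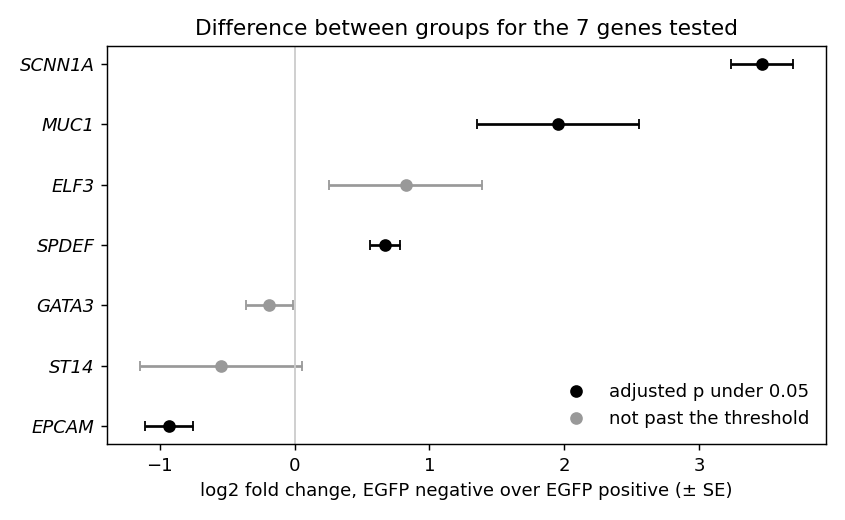
Log2 fold change (EGFP negative over EGFP positive, edgeR) with its standard error for the 7 genes tested, in black where the adjusted p is under 0.05 and in grey otherwise. SCNN1A lies at 3.47 and EPCAM at -0.93, and the bars of the low-count genes MUC1, ELF3 and ST14 are 0.57 to 0.60 wide on each side.

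The labelled cell type was checked against lineage genes. ESR1 and PGR, the oestrogen and progesterone receptor genes, had 0 to 2 counts in every library, and CDH1, encoding E-cadherin, had 1 to 3. ERBB2, encoding HER2, was at 35.4 TPM with no call between groups (edgeR adjusted p = 0.057). The mesenchymal filament gene VIM was at 5225 TPM, and the luminal keratins KRT8, KRT18 and KRT19 were at 209, 499 and 526 TPM. The silent FOXA1 stood beside silent ESR1, PGR and CDH1 and beside abundant simple keratins in the same libraries.

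**Figure D3:**
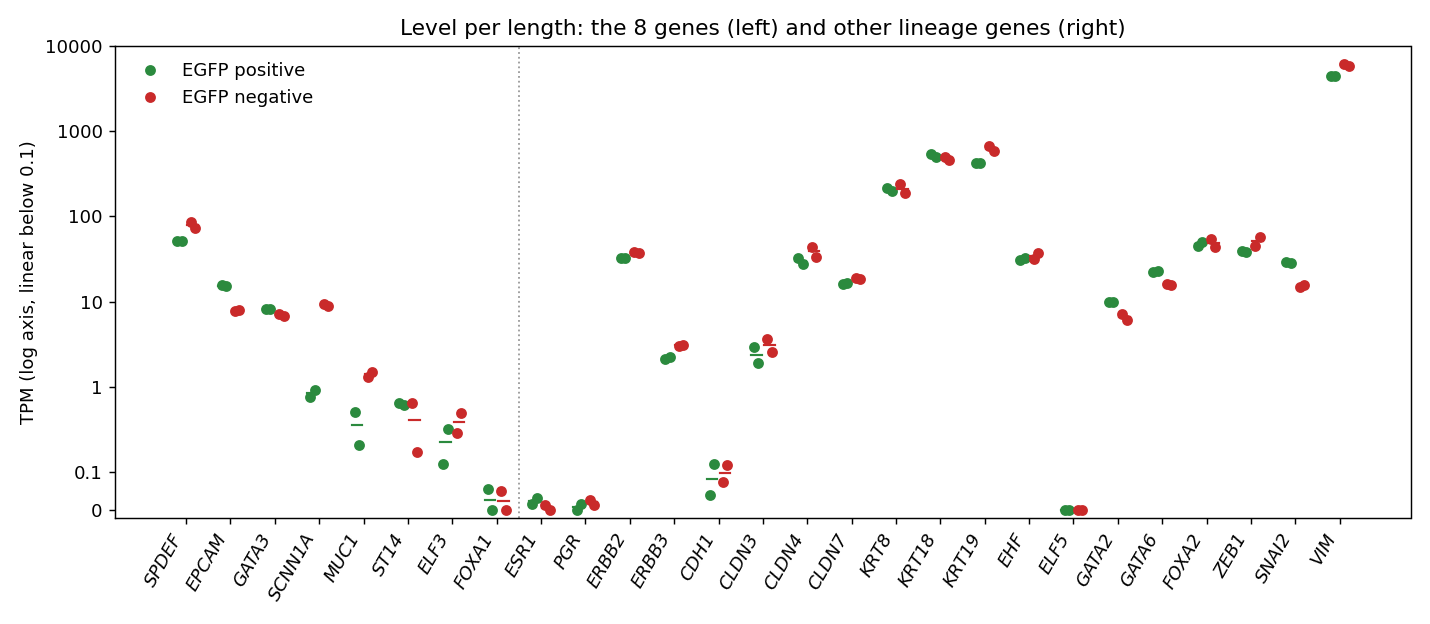
TPM in each library (dots) and group means (bars) for the 8 genes, left of the dotted line, and for other lineage genes, right of it, on a log axis that is linear below 0.1. FOXA1, ESR1, PGR and CDH1 lie at or near 0 in both groups, while FOXA2, EHF, KRT8 and VIM are well above SCNN1A.

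Genes around the members were read from the same fit as 16 lists with 98 tested genes, and their counts are given beside the 18.9% of all tested genes that passed. The lists were also chosen with earlier results of these data known, so a comparison with that share describes and tests nothing. In the list of hormone receptors and luminal targets 8 of 20 genes were tested, 4 higher and 0 lower, with a median log2 fold change of 0.44. CA12, a carbonic anhydrase gene induced by oestrogen receptor in luminal cells, rose from 13.4 to 55.9 CPM (log2 fold change 2.06 ± 0.13, SE). AGR2, XBP1 and PRLR were also called higher, with log2 fold changes of 1.01, 0.36 and 1.86. AGR2 lost its call without EGFP positive library 2 and with DESeq2. XBP1 lost it without EGFP positive library 1 and with low counts left unfiltered. PRLR, at 0.346 and 1.29 CPM, lost it in 7 of 11 alternatives. Among these were the ones without EGFP positive library 1, EGFP positive library 2 or EGFP negative library 2. PRLR also passed the count filter only through the EGFP negative libraries, with 12 and 19 counts there against 5 and 3. Of this list 10 genes were silent, TFF1, TFF3 and TBX3 among them. Of the 4 simple keratins only KRT19 was called, rising from 259 to 390 CPM, and the median of the 4 was 0.02.

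Among other transcription factors of epithelia, GATA6, GATA2, TFAP2A and TFAP2C fell and KLF4 rose. Outside GATA3 and FOXA1, 4 of 7 GATA and FOXA genes were tested, with 0 higher and 2 lower and a median of -0.49. GATA6 fell from 37.4 to 27.2 CPM and GATA2 from 17.2 to 11.96 CPM. Both calls were lost without EGFP positive library 1 or library 2. That of GATA2 was also lost without EGFP negative library 2, with low counts left unfiltered and with DESeq2. Per length GATA6, at 19.2 TPM, and GATA2, at 8.28 TPM, were both above GATA3. In the list of epithelial transcription factors and splicing regulators 9 of 18 were tested, 1 higher (KLF4) and 2 lower (TFAP2A and TFAP2C), with a median of -0.14. TFAP2A, an AP-2 factor of epithelial cells, fell from 16.3 to 9.85 CPM, TFAP2C from 14.004 to 9.72 CPM, and KLF4 rose from 28.2 to 36.5 CPM. The calls of all 3 were lost without EGFP positive library 1. Those of KLF4 and TFAP2C were also lost without library 2, with low counts left unfiltered and with DESeq2. GRHL2, OVOL1 and OVOL2, which hold epithelial cells in their state, were silent.

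Repressors of the epithelial state did not move one way. Of 12 such genes 6 were tested, 1 higher and 1 lower, with a median of -0.21. ZEB1 rose from 103 to 139 CPM (edgeR adjusted p = 0.0098, lost without EGFP positive library 1 or library 2), and SNAI2 fell from 27.7 to 15.02 CPM (edgeR adjusted p = 3.3e-04). TWIST1 had 0 counts in every library. Among mesenchymal and claudin-low markers 11 of 12 were tested, 5 higher and 2 lower, with a median of -0.06. VIM rose from 4189 to 5799 CPM and S100A4 from 92.4 to 257 CPM, while CD44 fell from 863 to 639 CPM and FBN1 from 153 to 90.5 CPM.

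EPCAM fell together with a tetraspanin gene and an adaptor gene of its partner list. TSPAN8, a tetraspanin gene, fell from 13.4 to 5.51 CPM, and FHL2, an adaptor reported to bind the inner part of EPCAM, from 85.8 to 61.5 CPM, a call lost without EGFP positive library 1. A further tetraspanin gene, CD9, rose from 100.2 to 158 CPM. Of the 12 genes in the list of EPCAM partners 10 were tested, 2 higher and 3 lower, with a median of 0.28. The claudin genes CLDN3, CLDN4 and CLDN7, of which claudin 7 binds EPCAM, were not called, with log2 fold changes of 0.40, 0.39 and 0.23.

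Among the partners of ST14, both listed inhibitor genes rose and their levels differed widely. SPINT2, encoding an inhibitor of matriptase, was at 285 TPM against 0.518 TPM for ST14, and rose from 187 to 240 CPM, a call lost without EGFP positive library 1 or library 2. SPINT1, encoding the main inhibitor of matriptase, was at 3.62 TPM and rose from 3.24 to 6.61 CPM (edgeR adjusted p = 0.011, lost without EGFP positive library 2). PRSS8, the prostasin gene that acts with matriptase, had 0 counts in every library. PLAU, whose product matriptase can activate, rose from 465 to 659 CPM, and F2RL1, a receptor that proteases cleave, fell from 406 to 343 CPM, a call lost in 6 of 11 alternatives including RLE and upper quartile scaling and those without EGFP positive library 1 or library 2. The list had 6 of 15 genes tested, 3 higher and 1 lower, with a median of 0.41.

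For SCNN1A, the beta and gamma partner genes were silent. The channel is built from alpha, beta and gamma subunits. SCNN1B and SCNN1G, the beta and gamma genes, had 0 counts in every library, which leaves room for a level below detection. SCNN1D, the delta subunit gene, was at 7.42 and 7.62 CPM in EGFP positive and 8.98 and 5.39 CPM in EGFP negative libraries and was not called. NEDD4L, the ubiquitin ligase that removes the channel from the surface, went down from 350 to 159 CPM, with a log2 fold change of -1.14 ± 0.08 (SE; edgeR adjusted p = 2.3e-07). Its relative NEDD4 fell from 98.0 to 70.3 CPM, a call lost without EGFP positive library 2, and SGK1, a kinase that restrains NEDD4L, fell from 26.7 to 18.6 CPM, a call lost without EGFP positive library 1 or library 2. NEDD4L lies on chromosome 18, as does GATA6, which was also called lower. The part of that chromosome in the changes of NEDD4L and GATA6 was not tested. STX1A, a syntaxin reported to bind the channel, rose from 39.7 to 72.3 CPM. The list had 11 of 14 tested, 1 higher and 4 lower, with a median of -0.18. Membrane mucins beside MUC1 were nearly all silent, 10 of 12, while the sialomucin gene PODXL rose from 377 to 491 CPM, a call lost without EGFP positive library 1 or library 2. CD164 was the other gene tested there, and the median of the 2 was 0.24.

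**Figure D4:**
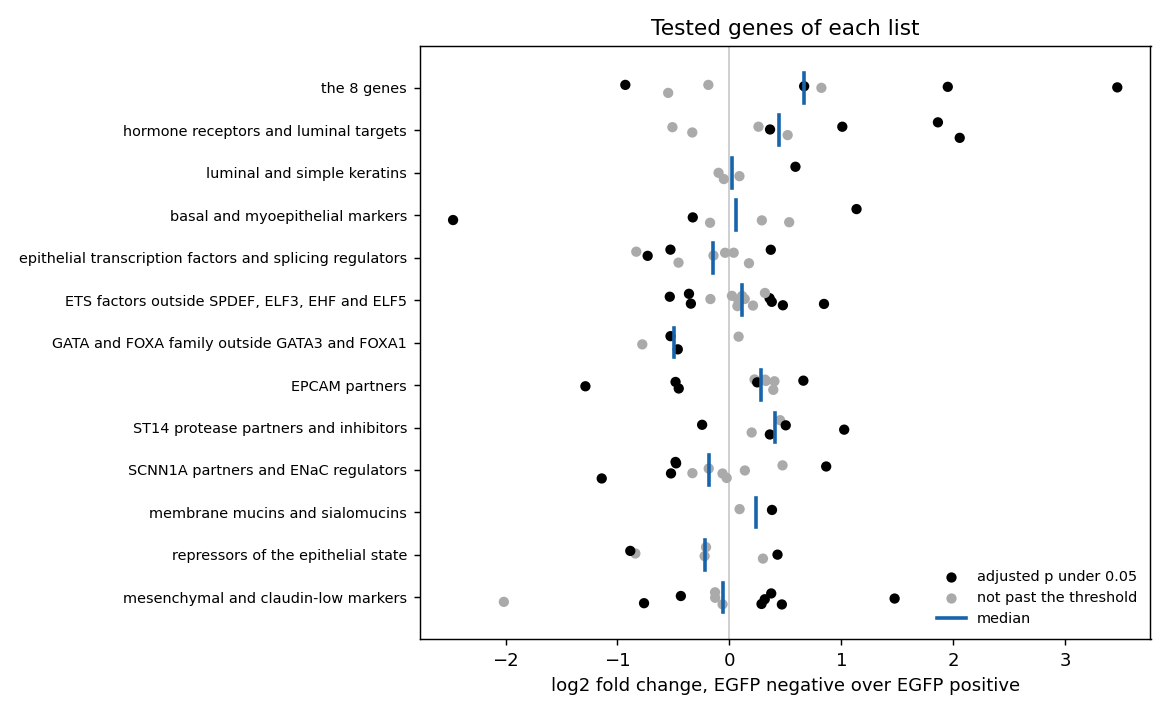
Log2 fold change (EGFP negative over EGFP positive) of each tested gene in the 8 genes and in 12 lists, black where the adjusted p is under 0.05 and grey otherwise, with the list median as a blue bar. The 8 genes spread from -0.93 to 3.47 around a median of 0.67, the called genes of the GATA and FOXA family lie below 0, and those of the hormone receptor list lie above it.

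The members were also set beside the nearest protein-coding genes on each side. Of 32 neighbours 22 were tested, 2 higher (TNFRSF1A and USP6NL) and 3 lower (ILRUN, TIMM17A and ZBTB44). Over all tested genes 18.9% passed, 9.4% higher and 9.46% lower. Beside SCNN1A, TNFRSF1A, encoding a receptor of tumour necrosis factor 4758 bases away, rose from 103 to 202 CPM (log2 fold change 0.97), LTBR was not called and PLEKHG6 and CD27 were under the filter. SCNN1A lies in the first 60 Mb of chromosome 12, where 155 of 458 tested genes were higher and 15 lower, with a median log2 fold change of 0.30. CD9, ETV6 and KRT83, also called higher, lie in the same region, and its part in their changes was not tested. The fold change of SCNN1A was above that median by far, and the part of the region in its change was not tested. Beside EPCAM, CALM2 and KCNK12 were not called, with log2 fold changes of -0.22 and -1.08. Beside SPDEF, ILRUN fell (log2 fold change -0.35) while SPDEF rose, and SNRPC and RPS10 were not called. RPS10 had only 9 to 21 counts a library, so its value says little about the surroundings of SPDEF. The 3 tested neighbours of MUC1, which were KRTCAP2, THBS3 and MTX1, were not called, at 0.31, 0.53 and 0.21.

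**Figure D5:**
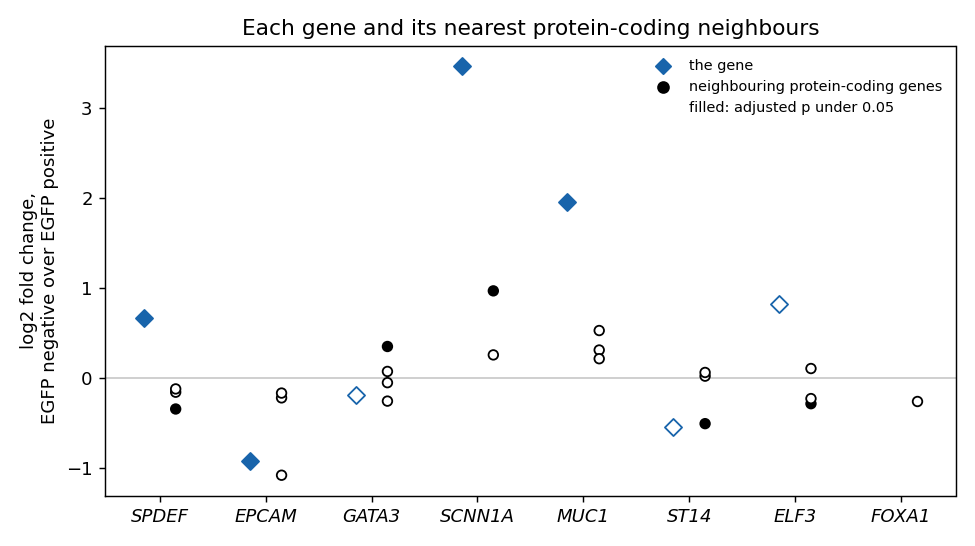
Log2 fold change (EGFP negative over EGFP positive) of each gene (blue diamonds) and of its tested neighbours among the nearest 2 protein-coding genes on each side (circles), filled where the adjusted p is under 0.05. SCNN1A at 3.47 and MUC1 at 1.95 stand above all of their tested neighbours, and FOXA1 was not tested.

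By pattern over the 4 libraries, the protein-coding genes nearest to SCNN1A were NUP210, KRT83 and RPS6KA2, at Euclidean distances of 0.0894, 0.237 and 0.259 between centred log2 CPM. Those nearest to EPCAM were LAYN, SNAI2 and CTIF, at distances of 0.0302 to 0.0456. CTIF lies on chromosome 18, as do NEDD4L and GATA6, and the part of that chromosome in its change was not tested. SNAI2, a repressor of epithelial genes, fell by a log2 fold change of -0.89 beside -0.93 for EPCAM. Those nearest to SPDEF were MAP1LC3A, WDR54 and CCDC61, at 0.0123 to 0.0256, and those nearest to MUC1 were TET1, ASAP3 and CST1, at 0.0926 to 0.135. With 4 libraries in 2 groups such nearness mostly restates the size of the group difference.

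Markers of other cell types that a sample could hold were at or near 0 with exceptions. Of 10 leukocyte genes 1 was tested: CSF1R, which rose from 1.34 to 6.41 CPM, while CD3E, CD4 and MS4A1 had 0 counts in every library and PTPRC was at 0.346 and 0.246 CPM. LYZ and CD14, both too low to be tested, were higher in the EGFP negative libraries without overlap. LYZ had 2 and 3 counts against 10 and 15, and CD14 had 6 and 2 counts against 10 and 9. The groups did not overlap for 57.4% of all tested genes, so this alone marks no difference. The summed level of the leukocyte list was 1.65 to 3.62 CPM in EGFP positive and 8.66 to 8.98 CPM in EGFP negative libraries. Most of it in the EGFP negative libraries came from CSF1R alone, at 6.33 to 6.49 CPM. In EGFP positive libraries CSF1R was at 0.693 to 1.99 CPM. With 23 and 8 counts there, it would not have passed the count filter on the EGFP positive libraries alone. Of 8 endothelial genes 3 were tested, of which PECAM1 rose from 0.778 to 3.40 CPM, ESAM and KDR were not called, and CDH5 had 0 counts in every library. PECAM1 had 9 counts in each EGFP positive library and 39 and 43 in the EGFP negative ones. It thus passed the count filter only through the group where it is high. The summed endothelial level was 254 to 262 CPM and 261 to 313 CPM, nearly all of it from ESAM alone, at 239 to 248 CPM in EGFP positive and 249 to 299 CPM in EGFP negative libraries. Of 8 stromal genes 2 were tested, and DCN had 0 counts in every library. PDGFRB rose from 2.51 to 5.15 CPM, a call lost with DESeq2 and without EGFP positive library 2 or EGFP negative library 1. The summed stromal level was 23.4 to 27.6 CPM in EGFP positive and 18.7 to 28.8 CPM in EGFP negative libraries. Most of it came from COL1A1, which was not called, at 13.9 to 23.5 CPM over the 4 libraries. None of 5 adipocyte genes was tested. In the basal list, which marks the myoepithelial layer, 6 of 12 were tested, 1 higher (NGFR, 19.3 to 42.4 CPM) and 2 lower (OXTR, 7.13 to 1.27 CPM, and EGFR, 599.8 to 478 CPM, the latter lost without EGFP positive library 1 or library 2), and KRT5, KRT14 and KRT17 were silent. The part of these genes in the differences of the 8 genes was not tested. In bulk RNA fewer cells of a type and less RNA per cell cannot be told apart.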

How the data were processed

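The deposited files hold raw fragment counts for 61471 gene names, made by the authors with featureCounts 2.0.1 on paired reads over exons of GENCODE 46 basic with no strand option, per the file headers. The aligner is not given in the sources used here, while the submitters' processing notes list GRCh37 and hg19 as builds. Gene coordinates in the tables are those of GRCh38: 18598 of 18707 protein-coding genes (99.4%), all 8 members among them, had an end within 5000 bp of GENCODE 29. That shows the annotation and not the alignment build.

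Groups and replicate numbers came from the labels. Genes were kept by filterByExpr (minimum count 10, total 15), leaving 16413, and tested with edgeR 4.0.16 (R 4.3.3), TMM factors 0.987 to 1.01, quasi-likelihood, group as the only term, all 4 libraries. CPM used TMM-scaled totals; TPM used the deposited exon lengths. The SE of a log2 fold change was its size over the square root of F. Chi-square per degree of freedom between replicates was 2.06 (EGFP positive) and 6.15 (EGFP negative), so none was a duplicate. The scripts were tested on simulated data.

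The members and lists were chosen with earlier results of these data known. Named genes are all members, their neighbours, from each list up to 4 called genes by smallest adjusted p (or 2 with the highest level where none was called), and for called members the 3 genes nearest in centred log2 (CPM + 0.5) with at least 1 CPM. Other list genes, such as FOXA2, EHF, ESR1, the claudins and the channel subunits, were named after their values were seen. A few listed genes are not reported here. Alternatives were RLE and upper quartile scaling, no filter, a stricter filter (1 CPM in 2 libraries, summed count 100), DESeq2 1.42.0, limma-voom (limma 3.58.1), a replicate block, each library left out, other thresholds for silent and TPM over protein-coding names. Promoters and biotypes are from RefSeq GRCh38.p14, in which 5 of 8 members matched a promoter. Figures used matplotlib 3.10.9.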

Additional observations from a re-analysis of the deposited data

How the results depend on the processing

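SCNN1A, SPDEF and EPCAM kept their calls in all 11 alternatives of scaling, filter, tool, replicate block and left-out library, with log2 fold changes of 3.35 to 3.60, 0.52 to 0.81 and -0.95 to -0.91. GATA3 stayed uncalled in all 11, at -0.25 to -0.12. MUC1 lost its call with no filter (log2 fold change 1.95) and ran from 1.45 to 2.72 with single libraries left out. ST14 was never called and ran from -1.78 to 0.0915 with single libraries left out. Over the alternatives 3 to 4 members were called. Over all genes 3095 were called, against 2041 by DESeq2, 4704 with the replicate block and 1452 to 4943 with single libraries left out. Of the 98 tested list genes 47 were called, 22 to 62 with single libraries left out, and of the 39 named list genes that were called 18 kept the call in all 11 alternatives. The labels do not say whether same-numbered libraries were paired. Their deviations from the group means correlated at 0.138 across genes. With 2 libraries a group the deviations of the 2 pairs mirror each other, so this value cannot decide on pairing. The replicate block changed no member's call. With silent set at under 0.5 TPM in every library 2 members were silent, ELF3 joining FOXA1. TPM over protein-coding names only gave means of 103 for SPDEF, 18.5 for EPCAM, 11.99 for GATA3, 7.87 for SCNN1A, 1.39 for MUC1, 0.814 for ST14 and 0.49 for ELF3. The causes of these shifts were not tested. Depth limits MUC1, ELF3, ST14 and FOXA1, which had at most 16 counts in a library.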

Other observations

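ETS factors outside the epithelial members SPDEF, ELF3, EHF and ELF5 changed in both directions. Of 18 such genes 15 were tested, 4 higher and 3 lower in EGFP negative cells, with a median log2 fold change of 0.11. ETV1 rose from 81.9 to 147 CPM (edgeR adjusted p = 1.6e-05) and ELF4 fell from 83.2 to 57.5 CPM (edgeR adjusted p = 0.0011). ETV6 rose from 28.96 to 40.4 CPM and ETS1 fell from 301 to 238 CPM, both calls lost without EGFP positive library 1 or library 2.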
